A study of Mus musculus with 24 samples.

Results

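Loss of the rod transcription factor Nrl changes gene expression in the mouse retina, and the measurements below ask how that change itself differed between postnatal day 10 (P10) and 2 months of age. For every probe set the knockout effect (Nrl ko minus WT, in log2 intensity) at P10 was subtracted from the knockout effect at 2 months, and the result is called the interaction. A positive interaction is a knockout effect that was more positive at 2 months, and a negative one an effect that was more negative. The comparison used 16 of the study's 24 Affymetrix arrays, in 4 groups of 4 named by their titles: WT P10, Nrl ko P10, WT 2 mon and Nrl ko 2 mon. The other 8 arrays, of P2 retina, entered only the estimate of the spread. All samples were total RNA of whole retina. Knockout (Nrl -/-) and wild-type mice shared a mixed genetic background of R1 and C57BL/6, which the labels call matched. Whether a replicate is 1 animal or several is not given in the sources used here, and p-values then describe the spread among these arrays alone, which may be technical.

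NRL is a basic leucine zipper protein that directs newly born photoreceptors to the rod fate and, together with the homeodomain protein CRX, switches on rod genes. In its absence cells that would have become rods take on features of S-cones, and the retina has cone-like photoreceptors in their place. At P10 photoreceptors are still building outer segments, whereas at 2 months the retina is mature. Müller glia span the retina and respond to photoreceptor stress by making intermediate filament and acute-phase proteins, and microglia are its resident macrophages.

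Across the 24 arrays the median intensity of an array lay between 61.7 and 71.7, and correlations between arrays of a group between 0.983 and 0.997. Precision is limited by the small number of arrays. Exactly 1 gene symbol was attached to 10833 of the 12422 probe sets tested, and a gene was represented by the brightest of them, which gave 8251 genes. Markers of retinal cells were bright in wild type: at 2 months Gnat1 averaged 5386 ± 562 (SD, n = 4), Crx, a photoreceptor transcription factor, 1619 ± 131 and Glul, the glutamine synthetase of Müller glia, 651 ± 61.2. Nrl itself read 123 to 156 in WT P10, 44.6 to 56.2 in Nrl ko P10, 129 to 189 in WT 2 mon and 48.3 to 62.7 in Nrl ko 2 mon, and its interaction was 0.04 ± 0.15 (limma, adjusted p = 0.999). The Nrl knockout values therefore lay below every wild-type value at both ages, and where this probe set lies relative to the deleted sequence is not given in the sources used here. Xist, which is transcribed in females, ranged from 8.90 to 287 over the 16 arrays, and the part of sex in any result was not tested. The interaction of Xist was -0.47 ± 1.28 (adjusted p = 0.999), an error too wide to show that the sexes were balanced.

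The knockout effect differed between the ages for 295 of 12422 probe sets, 2.37%, in limma with Benjamini-Hochberg adjusted p under 0.05, which is the rule behind every call below. Of these, 151 (1.22%) were more positive at 2 months and 144 (1.16%) more negative, and 63 differed by at least 1 log2 unit. Counted by genes, 231 of 8251 (2.80%) were called, 121 (1.47%) more positive and 110 (1.33%) more negative, and the median interaction over all genes was -0.03. The knockout effect itself was called for 483 genes (5.85%) at P10 and for 744 (9.02%) at 2 months. At unadjusted p under 0.05 the interaction counted 979 probe sets.

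The calls were sorted by the age at which the knockout effect was itself called. The commonest class was late-onset, with an effect called at 2 months and not at P10: 117 of the 231 genes, 58 higher and 59 lower in the knockout. A further 43 genes had grown, being called at both ages in 1 direction with the larger effect at 2 months (25 higher, 18 lower). Faded genes, called at P10 and not at 2 months, numbered 44 (21 higher, 23 lower at P10). In 13 genes the effect had shrunk but was still called (6 higher, 7 lower), in 7 it had reversed, and 7 genes were called at neither age on its own. An effect that was not called at an age may still be present there. The 5 arrangements are seen in the plot of the effect at 2 months against the effect at P10.

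**Figure D1:**
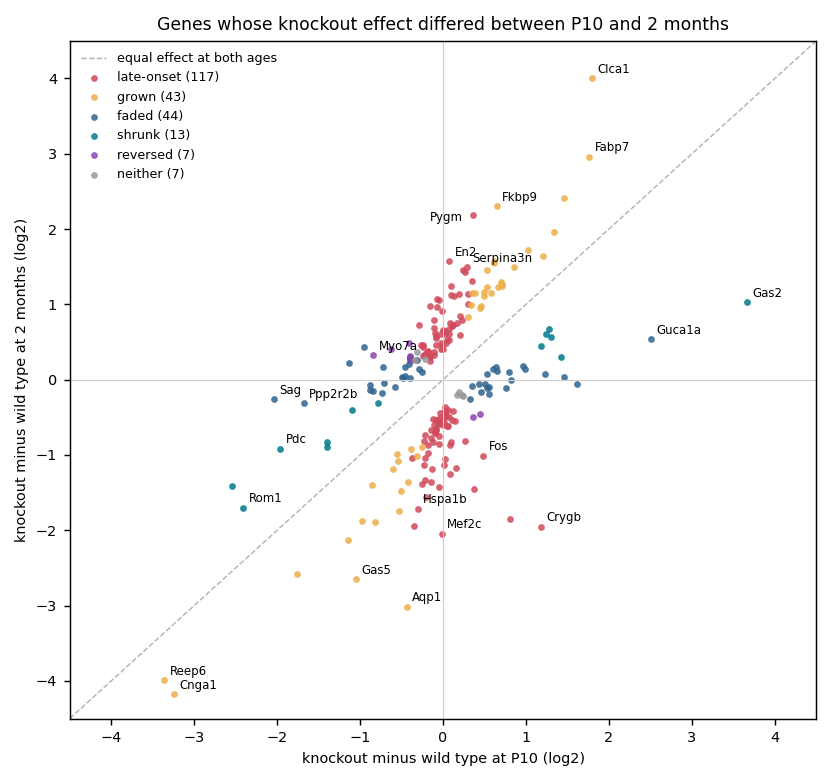
Knockout effect (knockout minus wild type, log2 intensity) at P10 on the horizontal axis and at 2 months on the vertical axis, 1 point for each of the 231 genes whose effect differed between the ages (limma, n = 4 arrays per group), coloured by class, with the dashed line marking equal effects. Late-onset genes (117) lie along the vertical axis, faded genes (44) along the horizontal axis, and grown genes such as Clca1 farther from 0 at 2 months than at P10.

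An interaction can come from a change with age in either genotype, since it equals the change from P10 to 2 months in the knockout minus that in wild type. Late-onset genes that were higher in the knockout had mostly gained RNA there: 53 of 58 rose from P10 to 2 months in the knockout, and 22 of 58 rose in wild type. Late-onset genes that were lower had mostly gained RNA in wild type: 49 of 59 rose in wild type, and 15 of 59 rose in the knockout. Over all genes 8.37% rose with age in wild type and 9.31% in the knockout. The change with age was the larger of the 2 in the knockout for 52 of the 58 higher genes, and in wild type for 46 of the 59 lower genes. These counts are not comparable with the shares over all genes, because the classes were chosen on the interaction. A positive interaction by itself favours a rise in the knockout or a fall in wild type, and a negative interaction the reverse. This choice does not fix which genotype changed. Wild type fell in 8 of the 58 higher genes, and the knockout fell in 15 of the 59 lower genes. Of the 18 grown genes that were lower, 14 rose in wild type and 7 in the knockout, and of the 25 grown genes that were higher, 18 rose in the knockout and 0 in wild type. The 6 genes whose higher level shrank all fell with age in the knockout, a direction that their negative interaction favours. Over all genes 13.1% fell there, which is not a comparable share for the same reason. Within a genotype, a change with age and a difference in processing between the ages cannot be told apart, whereas a batch effect common to both genotypes at an age drops out of the interaction.

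**Figure D2:**
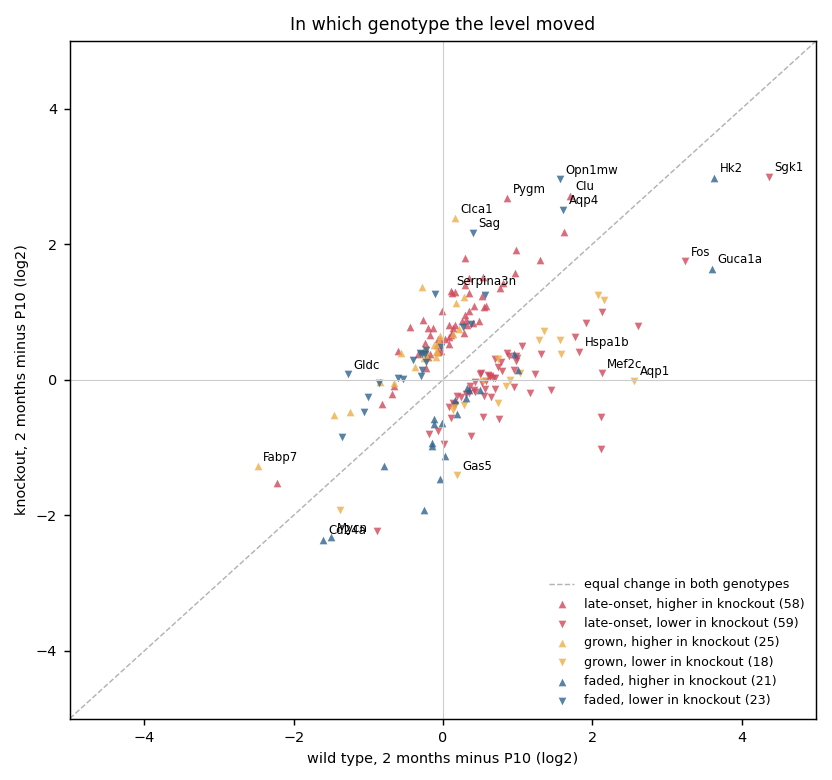
Change from P10 to 2 months (log2 intensity) in wild type on the horizontal axis and in knockout on the vertical axis for late-onset, grown and faded genes (n = 4 arrays per group), with upward triangles for genes higher and downward triangles for genes lower in the knockout and the dashed line marking equal change. Late-onset lower genes lie below the dashed line and late-onset higher genes above it, which follows from how they were chosen. The lower genes lie mostly to the right of 0, as wild type rose in 49 of 59. Among the higher genes the knockout rose in 53 of 58.

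Photoreceptor genes moved in both directions between the ages, and the rod, cone and shared genes did not do so together. Of 10 measured rod genes, 3 were called and all 3 were more negative at 2 months (Cnga1, Esrrb and Reep6), with a median interaction of -0.33 over the 10. Of 11 genes listed for cone phototransduction and identity, 3 were called, all more positive (Clca1, Opn1mw and Gnb3), with a median of 0.20. Opn1sw, Gnat2, Cnga3, Thrb and Sall3 were among the cone members not called. The lists were chosen with earlier results of these data known, so the place of Clca1 and the counts are no independent support. Over all genes 1.47% were called more positive and 1.33% more negative. Of 16 genes used by both kinds of photoreceptor, 4 were more positive (Sag, Pdc, Rom1 and Crx) and 2 more negative (Mef2c and Guca1a), with a median of 0.27. In these samples fewer cells of a type and less RNA per cell cannot be told apart. The summed intensity of the rod list was 7612 to 9191 in WT P10, 2942 to 3091 in Nrl ko P10, 17070.6 to 18450 in WT 2 mon and 4117 to 4967 in Nrl ko 2 mon, and that of the cone list was 2407 to 2687, 9254 to 10918, 2757 to 3071 and 15384 to 18488 in the same order.

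The upstream sequences of Sag and Cnga1 are shown because the 2 genes, both part of the visual cascade, lost RNA without Nrl at P10 and then moved apart. Each line gives the 250 bases before the gene's start as listed in the RefSeq promoter table of GRCm38.p6, in the direction of transcription: Sag at chr1:87803430-87803679 on the plus strand and Cnga1 at chr5:72642753-72643002 on the minus strand. The listed start of Sag lies inside the annotated span of the gene (chr1:87798143-87845158), so its window is upstream of that start and not of the whole gene. Capitals mark the core of CRX binding sites, TAATCC, found on either strand.
Sag: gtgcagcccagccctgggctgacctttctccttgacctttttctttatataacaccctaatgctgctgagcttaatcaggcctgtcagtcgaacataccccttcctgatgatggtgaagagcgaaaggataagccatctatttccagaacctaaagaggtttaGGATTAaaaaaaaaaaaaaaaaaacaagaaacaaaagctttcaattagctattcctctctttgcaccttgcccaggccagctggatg
Cnga1: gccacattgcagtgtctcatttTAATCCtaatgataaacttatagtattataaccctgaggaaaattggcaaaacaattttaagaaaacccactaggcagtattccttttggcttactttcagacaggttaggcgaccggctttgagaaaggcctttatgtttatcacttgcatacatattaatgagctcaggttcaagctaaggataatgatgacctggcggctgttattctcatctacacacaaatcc
The match begins 87 bases before the start in Sag, where it is on the opposite strand, and 228 bases before the start in Cnga1. Of all 32851 promoter windows of this length 6.25% held the core. It was present in 2 of 6 rod genes, 2 of 7 cone genes and 7 of 14 shared genes that had a window. A match describes letters and not a bound site.

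Sag, rod arrestin, which quenches activated opsin, read 3579, 4148, 4470.4 and 3952 in WT P10 and 956, 1092, 959.8 and 929.97 in Nrl ko P10. In WT 2 mon it read 4473, 5431, 5943 and 5441, and in Nrl ko 2 mon 3970.2, 4436, 4009.5 and 5397. The 4 knockout values lay far below wild type at P10, whereas at 2 months the 2 genotypes overlapped. The knockout effect went from -2.03 ± 0.17 at P10 to -0.26 ± 0.17 at 2 months, an interaction of 1.77 ± 0.25 (adjusted p = 2.3e-05), as the knockout rose with age by 2.17 ± 0.17 and the change in wild type was 0.40 ± 0.17 (adjusted p = 0.149). Sag is thus a faded deficit by the rule above. Pdc, phosducin, which binds transducin subunits, averaged 2481 ± 97.1 in WT P10 and 636 ± 37.4 in Nrl ko P10, and 3056 ± 124 and 1624 ± 171 at 2 months, a deficit that shrank (interaction 1.05 ± 0.15, adjusted p = 2.27e-05). A second, dimmer probe set of Pdc gave 0.08 ± 0.21. Rom1, which shapes the rims of outer segment discs, was 827 ± 22.00 and 156 ± 13.6 at P10 and 1333 ± 153 and 409.99 ± 50.5 at 2 months (interaction 0.71 ± 0.16, adjusted p = 0.00765; a second probe set 0.46 ± 0.17, adjusted p = 0.272). Crx, named after its values were seen, was lower in the knockout at P10, 1266 ± 66.4 against 1893 ± 134, and at 2 months averaged 1515 ± 114 against 1619 ± 131 (interaction 0.48 ± 0.11, adjusted p = 0.0109).

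Cnga1, the alpha subunit of the rod cyclic nucleotide-gated channel, read 146, 187, 149 and 134 in WT P10 and 15.5, 16.7, 17.3 and 15.4 in Nrl ko P10. Readings at 2 months were 317, 265, 339 and 337 in WT 2 mon and 16.6, 19.5, 18.8 and 14.8 in Nrl ko 2 mon. Wild type rose between the ages and no knockout value at either age reached 20. The knockout effect was -3.24 ± 0.10 at P10 and -4.18 ± 0.10 at 2 months (interaction -0.94 ± 0.14, adjusted p = 0.000113). Knockout readings this low may not differ from background, so the size of the effect is uncertain at both ages. Reep6, an endoplasmic reticulum protein of rods, averaged 1207 ± 93.4 and 117 ± 4.98 at P10 and 3083 ± 178 and 194 ± 18.2 at 2 months. Both genotypes rose in Reep6, wild type by 1.35 ± 0.09 and knockout by 0.72 ± 0.09 log2 units, and the deficit grew (interaction -0.64 ± 0.13, adjusted p = 0.00302). Esrrb, an orphan nuclear receptor of rods, had a late-onset deficit with an interaction of -0.67 ± 0.17 (adjusted p = 0.0286), which was not called in 9 of 16 fits that each left out 1 array (adjusted p up to 0.0943). The interactions of Gnat1, rod transducin alpha, -1.61 ± 0.50 (adjusted p = 0.101), and of Pde6b, a rod phosphodiesterase subunit, 0.62 ± 0.18 (adjusted p = 0.0702), did not pass the test.

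Among cone genes, Opn1mw, the medium-wavelength opsin, read 211, 156, 138 and 121 in WT P10 and 99.3, 69.9, 76.96 and 73.1 in Nrl ko P10. The WT 2 mon arrays gave 482, 431, 399.95 and 504, and the Nrl ko 2 mon arrays 469.8, 500.02, 741 and 811. At P10 every knockout value lay below every wild-type value, and at 2 months the genotypes overlapped with 2 knockout arrays above all of wild type. The effect was -0.96 ± 0.17 at P10 (adjusted p = 0.000285) and 0.44 ± 0.17 at 2 months (adjusted p = 0.139), and both genotypes rose with age, wild type by 1.56 ± 0.17 and knockout by 2.95 ± 0.17. Opn1sw, the short-wavelength opsin, was higher in the knockout at both ages by similar amounts, with means of 464 ± 43.6 and 3902 ± 299 at P10 and 762 ± 89.7 and 7122 ± 157 at 2 months, and an interaction of 0.16 ± 0.17 (adjusted p = 0.999). Gnat2, cone transducin alpha, also had an interaction that was not called, 0.07 ± 0.18 (adjusted p = 0.999). Gnb3, the cone transducin beta subunit, averaged 1284 ± 187 and 3526 ± 439 at P10 and 866 ± 119 and 4632 ± 715 at 2 months, so that its excess grew (interaction 0.96 ± 0.21, adjusted p = 0.00643) while wild type fell by 0.57 ± 0.15.

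Clca1, a secreted protein of the family of calcium-activated chloride channel regulators, had the most positive interaction among the genes named. Clca1 read 22.8, 24.7, 28.9 and 22.9 in WT P10 and 81.3, 77.8, 82.1 and 102 in Nrl ko P10. By 2 months they were 26.7, 23.97, 31.97 and 28.6 in WT 2 mon and 411, 474, 389 and 514 in Nrl ko 2 mon. All knockout values exceeded wild type at both ages, and the 2-month knockout arrays stood several-fold above those of P10, while wild type stayed low. The interaction was 2.22 ± 0.22 (adjusted p = 1.49e-07), and a second, dim probe set gave 0.25 ± 0.18 (adjusted p = 0.958). Guca1a, a calcium-sensing activator of guanylate cyclase, read 226, 275, 315 and 328 in WT P10 and 1381, 1719, 1825 and 1536 in Nrl ko P10. At 2 months the values were 2714, 3449, 3927 and 3810.2 in WT 2 mon and 4356, 4695, 5309 and 5713 in Nrl ko 2 mon. Both genotypes rose, wild type by more, and all knockout values stayed above wild type at both ages. Its excess went from 2.50 ± 0.19 at P10 to 0.54 ± 0.19 at 2 months (adjusted p = 0.101), an interaction of -1.97 ± 0.27 (adjusted p = 2.17e-05).

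Mef2c, a transcription factor of the MADS box family, had a late-onset deficit in the knockout. It read 27.4, 31.4, 38.02 and 26.8 in WT P10 and 27.1, 30.7, 30.5 and 33.1 in Nrl ko P10. In WT 2 mon it read 145, 158, 139.7 and 99.4, and in Nrl ko 2 mon 31.8, 37.7, 32.95 and 27.9. The 3 groups other than WT 2 mon shared 1 range, and WT 2 mon alone stood above it. The interaction was -2.03 ± 0.20 (adjusted p = 6.9e-08), and 3 other Mef2c probe sets, all called, gave -1.51 ± 0.12, -2.15 ± 0.15 and -1.81 ± 0.17. Wild type rose by 2.13 ± 0.14 log2 units, and the change in the knockout was 0.10 ± 0.14 (adjusted p = 0.778).

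Of the genes listed for reactive glia and injury, 8 showed late-onset excess. Of 24 measured members 9 were called, all more positive at 2 months (1.47% of all genes were), with a median interaction of 0.26. This list too was chosen with earlier results of these data known, so its counts are no independent support. By age, 1 of the 24 was higher in the knockout at P10 (3.48% of all genes were), 13 were higher at 2 months (5.08% of all genes) and 1 was lower at 2 months (3.94%). The 9 were Serpina3n, A2m, Osmr, S100a6, Cebpd, Gfap, Mt1, Mt2 and Socs3; the first 8 were late-onset and Socs3 had grown. The count was 5 without replicate 4 of Nrl ko P10, and likewise without replicate 1 or replicate 4 of Nrl ko 2 mon. Serpina3n, an acute-phase inhibitor of serine proteases, read 87.8, 96.8, 103 and 94.2 in WT P10 and 122, 112, 117 and 116 in Nrl ko P10. Readings at 2 months were 107, 111, 96.9 and 95.7 in WT 2 mon and 367, 306, 233 and 269 in Nrl ko 2 mon. Only Nrl ko 2 mon stood apart in Serpina3n by more than a small margin, although at P10 too the knockout values lay just above wild type. The interaction was 1.21 ± 0.14 (adjusted p = 2.54e-06).

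Gfap, the intermediate filament protein of astrocytes and stressed Müller glia, read 44.5, 59.8, 58.9 and 55.5 in WT P10 and 53.9, 54.6, 51.8 and 53.3 in Nrl ko P10. The WT 2 mon arrays gave 60.2, 61.2, 55.2 and 60.7, and the Nrl ko 2 mon arrays 93.1, 98.8, 80.1 and 89.9. The genotypes overlapped at P10 and were apart at 2 months, with an interaction of 0.63 ± 0.13 (adjusted p = 0.00274) from the brighter of 2 probe sets and 0.35 ± 0.14 (adjusted p = 0.329) from the other. S100a6, a calcium-binding protein, averaged 43.4 ± 2.57 and 47.7 ± 2.34 at P10 and 63.1 ± 5.09 and 137 ± 26.9 at 2 months (interaction 0.97 ± 0.16, adjusted p = 0.000282). Cebpd, an acute-phase transcription factor, had an interaction of 0.94 ± 0.23 (adjusted p = 0.0192). It was not called without replicate 4 of Nrl ko P10, replicate 2 of WT P10, replicate 1 or replicate 4 of Nrl ko 2 mon, or replicate 1 of WT 2 mon, with values of 0.83 to 0.88 and adjusted p up to 0.0575. Mt1 and Mt2, metal-binding metallothioneins, had interactions of 0.55 ± 0.14 (adjusted p = 0.0323) and 0.46 ± 0.12 (adjusted p = 0.0409), and lost their calls in 9 and 12 of the 16 fits that each left out 1 array, with adjusted p up to 0.0875 and 0.112.

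A2m, Osmr and Socs3 were named after their values were seen, the first 2 because they were too dim for the naming rule. A2m, the protease inhibitor alpha-2-macroglobulin, averaged 22.3 ± 1.19 and 20.04 ± 1.03 at P10 and 24.95 ± 2.16 and 49.8 ± 11.1 at 2 months (interaction 1.13 ± 0.15, adjusted p = 8.74e-06). Osmr, the receptor subunit for oncostatin M, was 16.5 ± 1.69 and 15.95 ± 1.78 at P10 and 20.3 ± 2.85 and 42.6 ± 9.25 at 2 months (interaction 1.10 ± 0.18, adjusted p = 0.000171). Socs3, a feedback inhibitor of cytokine signalling through STAT3, read 66.2, 85.1, 89.4 and 81.6 in WT P10 and 149, 121, 133 and 124 in Nrl ko P10. By 2 months they were 98.6, 88.2, 90.4 and 95.2 in WT 2 mon and 224, 194, 204 and 263 in Nrl ko 2 mon. Its knockout values were above wild type at both ages and rose further with age, with an effect of 0.71 ± 0.09 at P10, 1.24 ± 0.09 at 2 months and an interaction of 0.53 ± 0.13 (adjusted p = 0.0257). The interaction of Stat3 itself was 0.29 ± 0.10 (adjusted p = 0.222). Other members of the list were not called, among them Timp1, a metalloproteinase inhibitor, at -0.09 ± 0.14 and the growth factor Fgf2 at -0.03 ± 0.11 (adjusted p = 0.999 for both). Edn2, the member that was lower at 2 months (-0.33 ± 0.08, adjusted p = 0.00848), had an interaction of -0.29 ± 0.12 (adjusted p = 0.368).

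The 250 bases before the listed start of Socs3 are shown because it was the 1 member of the reactive list, of 19 with a window, that held a STAT element (TTCNNNGAA, either strand, in capitals); the window lies at chr11:117969367-117969616 on the minus strand of GRCm38.p6 (RefSeq), inside the annotated span of the gene (chr11:117966079-117970336).
Socs3: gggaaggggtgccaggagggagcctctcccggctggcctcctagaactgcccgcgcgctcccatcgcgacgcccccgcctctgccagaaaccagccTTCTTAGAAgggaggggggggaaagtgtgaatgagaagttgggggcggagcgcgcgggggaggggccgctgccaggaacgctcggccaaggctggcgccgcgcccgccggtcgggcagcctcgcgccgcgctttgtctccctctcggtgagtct
The match begins 154 bases before the start, and 7.02% of the 32851 promoter windows held such an element.

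**Figure D3:**
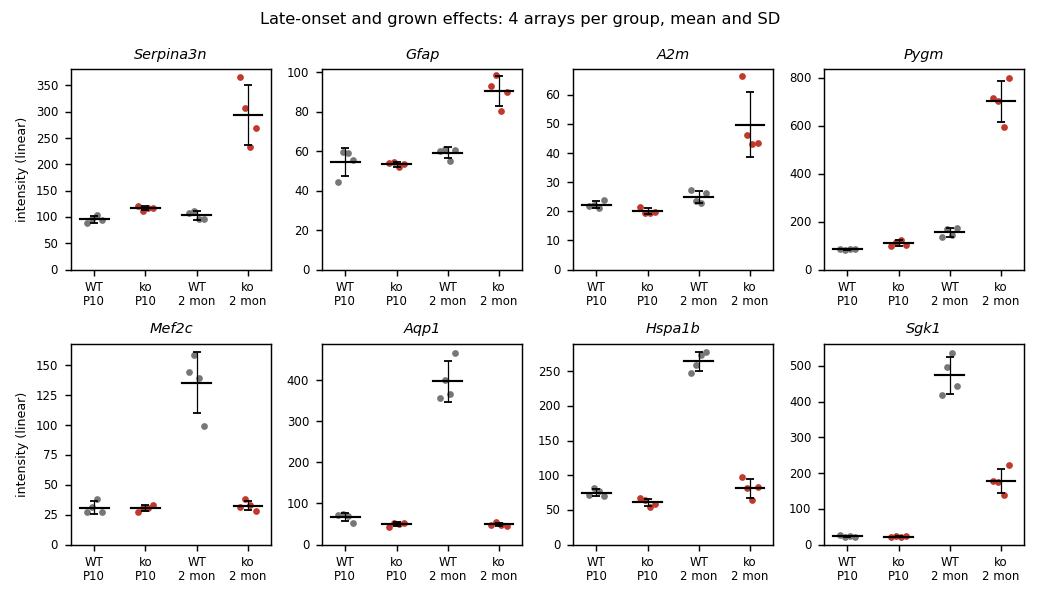
Intensity (linear scale) of 8 genes whose effect was late-onset or grown, with 1 point per array (4 per group), a bar for the mean and whiskers for the SD; grey is wild type and red is knockout. In Serpina3n, Gfap, A2m and Pygm the knockout at 2 months stands above the other 3 groups, and in Mef2c, Aqp1, Hspa1b and Sgk1 wild type at 2 months does.

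Müller glia had 2 called genes of 13, both more positive, as were 1.47% of all genes. Clu, clusterin, an extracellular chaperone, averaged 273 ± 26.8 and 222 ± 13.03 at P10 and 884 ± 97.8 and 1465 ± 183 at 2 months, a late-onset excess (interaction 1.02 ± 0.13, adjusted p = 1e-05), and a second Clu probe set gave 0.74 ± 0.17 (adjusted p = 0.0124). Clu lies within 20 Mb of Nrl on chromosome 14 of GRCm38.p6. In that stretch 8 of 174 genes (4.60%) were called in either direction, against 2.80% of all genes. The part of flanking DNA carried along with the deleted allele was not tested. Aqp4, the water channel of Müller cell end feet, read 66.4, 67.00, 70.7 and 43.5 in WT P10 and 33.8, 42.8, 34.2 and 36.6 in Nrl ko P10. At 2 months the values were 162, 209, 223 and 156 in WT 2 mon and 212, 235, 181 and 209 in Nrl ko 2 mon. The knockout lay below wild type at P10 and overlapped it at 2 months, so the deficit had faded (interaction 0.90 ± 0.18, adjusted p = 0.0034; a second probe set 0.76 ± 0.17, adjusted p = 0.00765). Glul and Rlbp1, the retinaldehyde-binding protein of Müller glia, had interactions of 0.23 ± 0.15 and 0.06 ± 0.11 that were not called (adjusted p = 0.887 and 0.999). The summed level of the Müller list was 5221 to 5928 in WT P10, 7166 to 7461 in Nrl ko P10, 6870 to 7673 in WT 2 mon and 8694 to 10017 in Nrl ko 2 mon. This sum does not describe all members, whose median log2 knockout effect was 0.01 at P10 and 0.15 at 2 months. At P10 1 member was called higher and 1 lower, and at 2 months 4 higher and 0 lower. Apoe, a member of the list, was at 1.16 and 0.77.

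Of 19 microglia and macrophage genes 3 were called, all more positive (1.47% of all genes were), with a median interaction of 0.15. Ctss, the lysosomal protease cathepsin S, averaged 66.4 ± 3.28 and 62.3 ± 3.35 at P10 and 52.7 ± 2.52 and 81.1 ± 9.18 at 2 months (interaction 0.71 ± 0.14, adjusted p = 0.00234). C1qc, a chain of complement C1q, fell in wild type from 246 ± 32.9 to 155 ± 10.2, and in the knockout averaged 213 ± 14.99 and 199 ± 6.21, with no call for the change there (interaction 0.56 ± 0.12, adjusted p = 0.00424). C1qa, another C1q chain, fell by 0.68 ± 0.08 with age in wild type and fell by 0.22 ± 0.08 in the knockout, which left an excess at 2 months of 0.49 ± 0.08 and an interaction of 0.46 ± 0.11 (adjusted p = 0.0137; 0.0503 with the replicate number as a block within age). C1qb, the other C1q chain, had an interaction of 0.33 that was not called (adjusted p = 0.81). Csf1r, the growth factor receptor that defines microglia, had an interaction of 0.04 ± 0.17 (adjusted p = 0.999). Summed levels of the list were 2108.5 to 2375 in WT P10, 2246 to 2495 in Nrl ko P10, 1976 to 2053 in WT 2 mon and 2362 to 2499 in Nrl ko 2 mon. The sum does not describe all members, whose median log2 knockout effect was -0.07 at P10 and 0.04 at 2 months. At P10 1 member was called higher and 1 lower, and at 2 months 5 higher and 0 lower. The part of the number of microglia in these results was not tested.

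Of 23 antigen presentation and interferon genes 3 were called, all late-onset and higher, where 1.47% of all genes were called more positive. B2m, the light chain of class I molecules, averaged 75.2 ± 5.80 and 75.4 ± 6.80 at P10 and 95.6 ± 6.95 and 151 ± 14.04 at 2 months (interaction 0.66 ± 0.12, adjusted p = 0.00139). H2-K1, a class I heavy chain, was 86.2 ± 1.90 and 97.03 ± 4.54 at P10 and 147 ± 12.4 and 247 ± 12.9 at 2 months (interaction 0.59 ± 0.10, adjusted p = 0.000697). Class I genes are near-identical copies whose probe sets may cross-hybridise, and 2 other H2-K1 probe sets gave 0.15 ± 0.10 and 0.03 ± 0.20, neither called. The other call was the interferon-induced gene Ifit3, named after its values were seen, at 0.44 ± 0.12 (adjusted p = 0.0398).

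Outside those lists, Pygm, the muscle form of glycogen phosphorylase, read 86.6, 82.9, 85.03 and 86.1 in WT P10 and 98.5, 117, 123 and 101 in Nrl ko P10. In WT 2 mon it read 135, 169, 143 and 172, and in Nrl ko 2 mon 715, 701, 593 and 799. Pygm rose with age in both genotypes, but the Nrl ko 2 mon values were several-fold above all others (interaction 1.82 ± 0.22, adjusted p = 1.99e-06). En2, an engrailed homeobox gene, averaged 31.98 ± 4.16, 33.5 ± 1.89, 39.1 ± 2.07 and 117 ± 12.5 in WT P10, Nrl ko P10, WT 2 mon and Nrl ko 2 mon (interaction 1.496 ± 0.13, adjusted p = 1.21e-08). Txndc5, a thioredoxin-domain protein of the endoplasmic reticulum, fell in wild type from 321 ± 31.7 to 235 ± 10.4 and rose in the knockout from 378 ± 34.4 to 645 ± 33.3 (interaction 1.22 ± 0.11, adjusted p = 1.09e-08). Ccl9, a chemokine, averaged 42.1 ± 5.14 and 88.5 ± 12.2 at 2 months and did not differ by the test at P10 (interaction 1.15 ± 0.17, adjusted p = 6.16e-05). Frzb, a secreted Wnt antagonist, had an interaction of 0.55 ± 0.11 (adjusted p = 0.00356). It was the 1 call among 33 Wnt genes, where 2.80% of all genes were called.

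Grown genes that were higher included a lipid carrier of immature and glial cells. Fabp7, that fatty acid-binding protein, read 231, 223, 262 and 348 in WT P10 and 879, 964, 796 and 914 in Nrl ko P10. Readings at 2 months were 58.6, 44.1, 39.02 and 47.5 in WT 2 mon and 355, 332, 330.3 and 454 in Nrl ko 2 mon. With age wild type fell by 2.48 ± 0.14 and the knockout fell by 1.28 ± 0.14, so that the excess went from 1.76 ± 0.14 to 2.96 ± 0.14 (interaction 1.202 ± 0.20, adjusted p = 0.000228). Fkbp9, a peptidyl-prolyl isomerase of the endoplasmic reticulum, averaged 40 ± 2.64 and 63.3 ± 11.4 at P10 and 32.9 ± 4.52 and 166 ± 43.02 at 2 months (interaction 1.65 ± 0.21, adjusted p = 7.07e-06). Map6, which stabilises microtubules, was 135 ± 12.8 and 206 ± 8.42 at P10 and 152 ± 10.3 and 454 ± 33.96 at 2 months (interaction 0.97 ± 0.12, adjusted p = 7.59e-06).

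Several late-onset and grown deficits were genes that rose in wild type and not, or less, in the knockout. Aqp1, a water channel, read 72.4, 74.5, 69.97 and 53.6 in WT P10 and 42.3, 51.97, 50.96 and 53.2 in Nrl ko P10. The WT 2 mon arrays gave 356, 401, 367 and 466, and the Nrl ko 2 mon arrays 48.4, 54.03, 47.95 and 45.2. At P10 the knockout lay just below wild type; at 2 months WT 2 mon stood far above the other 3 groups. Wild type rose by 2.56 ± 0.12, the change in the knockout was -0.02 ± 0.12 (adjusted p = 0.961), and the interaction of -2.58 ± 0.16 (adjusted p = 5.5e-11) was not seen in a second, dimmer probe set (-0.14 ± 0.20). Sgk1, a kinase of ion transport that responds to glucocorticoids, named after its values were seen, read 25.6, 21.2, 24.2 and 20.9 in WT P10 and 22.1, 22.5, 20.4 and 23.3 in Nrl ko P10. By 2 months they were 419, 497, 535 and 444 in WT 2 mon and 176, 175, 138 and 222 in Nrl ko 2 mon. Both genotypes overlapped at P10 and rose, wild type to the higher level, with an interaction of -1.37 ± 0.15 (adjusted p = 7.75e-07).

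Fam3c, a secreted cytokine-like protein, averaged 299.9 ± 39.8 and 206 ± 13.9 at P10 and 893 ± 50.1 and 269.9 ± 52.4 at 2 months (interaction -1.21 ± 0.16, adjusted p = 1.49e-05), and its 2 other probe sets gave -1.15 ± 0.18 (called) and -0.38 ± 0.20 (not called). Tnfaip3, an enzyme that restrains NF-kappaB signalling, was 74.4 ± 18.1 and 32.9 ± 0.807 at P10 and 333 ± 77.7 and 75.3 ± 13.8 at 2 months, and rose in both genotypes (interaction -0.98 ± 0.21, adjusted p = 0.00627). Polg2, the accessory subunit of mitochondrial DNA polymerase, rose in wild type from 88.2 ± 6.75 to 147 ± 15.1 and fell in the knockout from 50.03 ± 1.33 to 39.6 ± 2.79 (interaction -1.08 ± 0.14, adjusted p = 1.25e-05; a second probe set 0.03 ± 0.16). Ccn4, a secreted matricellular protein, was 88.4 ± 14.5 in WT 2 mon, with means of 22.8 to 32.6 in the other groups (interaction -1.59 ± 0.18, adjusted p = 1.33e-06). Gas5, a host gene of small nucleolar RNAs, differed in that the knockout fell, from 268 ± 81.3 to 97.97 ± 8.57, while wild type averaged 545 ± 79.2 and 615 ± 48.4 (interaction -1.60 ± 0.20, adjusted p = 7.17e-06); its 2 other probe sets gave 0.01 ± 0.12 and -0.05 ± 0.12. Bcl2l11, the pro-apoptotic protein BIM, was the 1 call among 18 apoptosis genes, where 2.80% of all genes were called. There were 2 calls without replicate 4 of WT P10 or replicate 4 of Nrl ko 2 mon. Bcl2l11 fell in the knockout from 115 ± 6.51 to 78.1 ± 6.12 (interaction -0.67 ± 0.10, adjusted p = 0.000121). Its 2 other probe sets gave -0.12 ± 0.14 and -0.11 ± 0.12.

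Heat shock genes were split. Of 23 measured members 2 were more negative (Hspa1b and Hspa1a) and 1 more positive (Hsph1) at 2 months, with a median interaction of 0.01. The count of 3 was 6 without Nrl ko 2 mon replicate 3, and 2.80% of all genes were called. The upstream windows of the inducible Hsp70 pair are shown because these are near-identical genes that moved together: Hspa1a at chr17:34972157-34972406 and Hspa1b at chr17:34959239-34959488, both on the minus strand of GRCm38.p6 (RefSeq), with capitals on a heat shock element (GAANNTTC, either strand).
Hspa1a: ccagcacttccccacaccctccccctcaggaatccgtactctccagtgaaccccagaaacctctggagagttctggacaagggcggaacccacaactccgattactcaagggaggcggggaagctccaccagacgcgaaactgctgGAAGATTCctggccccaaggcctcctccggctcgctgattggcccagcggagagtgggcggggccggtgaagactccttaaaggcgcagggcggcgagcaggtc
Hspa1b: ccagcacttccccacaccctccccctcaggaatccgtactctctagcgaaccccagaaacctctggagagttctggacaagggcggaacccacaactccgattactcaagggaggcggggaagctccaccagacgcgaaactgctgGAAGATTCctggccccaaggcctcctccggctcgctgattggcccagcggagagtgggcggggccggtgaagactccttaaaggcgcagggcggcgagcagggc
The element begins 104 bases before the start in each, the 250-base windows differ at 3 bases, and 6.69% of the 32851 promoter windows held such an element, as did 6 of the 20 heat shock genes with a window. Hspa1b, an inducible Hsp70 chaperone, read 71.1, 80.9, 77.00 and 70.7 in WT P10 and 66.6, 64.1, 54.4 and 58.2 in Nrl ko P10. At 2 months the values were 248, 259.5, 273 and 277 in WT 2 mon and 97.8, 81.3, 64.3 and 82.5 in Nrl ko 2 mon. Knockout values lay below wild type at both ages, by a small margin at P10 and a wide one at 2 months, as wild type rose by 1.82 ± 0.09 and knockout by 0.41 ± 0.09 (interaction -1.41 ± 0.13, adjusted p = 2.16e-08). Hspa1a averaged 149 ± 11.7 and 125 ± 7.62 at P10 and 503 ± 26.3 and 194 ± 20.6 at 2 months (interaction -1.13 ± 0.13, adjusted p = 1.38e-06), and its probe set may also detect Hspa1b. Hsph1, a large Hsp110 co-chaperone, went the other way, with 208 ± 15.04 in WT 2 mon and 497 ± 98.4 in Nrl ko 2 mon (interaction 1.14 ± 0.14, adjusted p = 3.75e-06).

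Immediate early genes, which answer stimulation within minutes, had 3 calls of 24, all more negative at 2 months (1.33% of all genes were). Their median interaction was -0.07. Fos, a component of the AP-1 factor, read 17.8, 20.1, 14.9 and 17.7 in WT P10 and 21.98, 25.2, 21.1 and 31.1 in Nrl ko P10. In WT 2 mon it read 138, 172, 188 and 171, and in Nrl ko 2 mon 62.7, 61.9, 79.03 and 151. WT 2 mon was the highest group, and Nrl ko 2 mon replicate 4 lay within the wild-type range while the other 3 knockout arrays lay below it. The interaction was -1.495 ± 0.26 (adjusted p = 0.000589) and -1.79 without that array, and a second Fos probe set gave -0.01 ± 0.13. Dusp1, a phosphatase of MAP kinases, averaged 164 ± 35.7 and 91.5 ± 11.4 at 2 months (interaction -0.93 ± 0.16, adjusted p = 0.00065). Egr1, another gene of the list, ranged from 278 to 764 among the Nrl ko 2 mon arrays with the highest value again in replicate 4, and its interaction was -0.57 ± 0.27 (adjusted p = 0.567). The time of day and the handling of the animals are not given in the sources used here. Of 15 clock genes 3 were called, where 2.80% of all genes were. Dbp, a clock output factor, was at 0.63 ± 0.14 (adjusted p = 0.0078). Tef and Nfil3, which bind the same promoter element, were at 0.40 ± 0.10 and -0.48 ± 0.13. Per1 was at -0.10 ± 0.15 and Arntl at -0.38 ± 0.13, neither called. Tef and Nfil3 lost their calls in 7 and 12 of the 16 fits that each left out 1 array. A second Nfil3 probe set gave -0.04 ± 0.11 (not called). The count of 3 clock genes was 1 in each of 6 fits, those without replicate 2 or 4 of Nrl ko P10, replicate 1 of WT P10, replicate 4 of Nrl ko 2 mon, or replicate 2 or 3 of WT 2 mon. The part of sampling time in the immediate early and clock genes was not tested.

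Glycolysis had 2 called genes of 16, both more negative at 2 months, as were 1.33% of all genes. Pfkp, a phosphofructokinase, rose in wild type from 272 ± 35.2 to 535 ± 82.7 and averaged 249 ± 23.03 and 303 ± 43.9 in the knockout (interaction -0.70 ± 0.16, adjusted p = 0.00885; a second probe set -0.58 ± 0.13, adjusted p = 0.00811). Hk2, a hexokinase, averaged 114 ± 10.4 and 167 ± 6.18 at P10 and rose with age to 1422 ± 206 in wild type and 1330.3 ± 228 in the knockout, so that an excess of 0.55 ± 0.11 at P10 faded (interaction -0.65 ± 0.16, adjusted p = 0.019). A second, dim Hk2 probe set gave -0.27 ± 0.14 (not called). The Hk2 call was lost without replicate 3 of WT P10, replicate 1 or replicate 2 of Nrl ko 2 mon, or replicate 4 of WT 2 mon (adjusted p up to 0.0593), which leaves 1 call in the list.

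Lens genes had a median interaction of -1.81 over 12 measured members, which does not describe all of them. Cryab, Crybb2, Mip, Bfsp1 and Hsf4 lay between -0.34 and 0.07, and the other members between -3.15 and -1.81. Crygb, Crygc and Crygs, crystallins of lens fibre cells, were the 3 called, all more negative, as were 1.33% of all genes. Crygs read 68.8, 54.5, 49.5 and 48.02 in WT P10 and 72.6, 86.3, 62.9 and 62.9 in Nrl ko P10. Readings at 2 months were 212, 327, 432 and 418 in WT 2 mon and 58.9, 132, 159 and 179.9 in Nrl ko 2 mon. WT 2 mon was above all other samples, and within each group the arrays differed widely. Summed lens levels were 907.5 to 1420 in WT P10, 1020 to 3432 in Nrl ko P10, 2240 to 3439 in WT 2 mon and 955 to 1534 in Nrl ko 2 mon, and replicates 1 and 2 of Nrl ko P10 were the high ones of their group, at 2164 and 3432. The interactions were -3.14 ± 0.84 for Crygb, -2.66 ± 0.68 for Crygc and -1.82 ± 0.43 for Crygs (adjusted p = 0.0388, 0.0285 and 0.0147). A second Crygb probe set gave -0.71 ± 0.26 (not called). The count of 3 was 1 in each of 8 fits, those without replicate 1 or 2 of Nrl ko P10 or Nrl ko 2 mon, or without replicate 3 or 4 of WT P10 or WT 2 mon. Crygb was not called in 11 and Crygc in 8 of the 16 fits that each left out 1 array; without Nrl ko P10 replicate 2 they were -2.56 (adjusted p = 0.118) and -2.21 (adjusted p = 0.0857). With robust moderation of the variance none of the 3 was called. Gamma crystallins are close copies whose probe sets may share signal, and the part of lens tissue carried into the samples was not tested.

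The knockout fell with age in 14 of 21 faded excesses, rose in 3, and fell in all 6 shrunk ones. These genes were chosen for a negative interaction, which favours a fall in the knockout or a rise in wild type. Gas2, an actin-associated protein, read 19.5, 24.8, 20.6 and 16.4 in WT P10 and 259, 396, 194 and 214 in Nrl ko P10. The WT 2 mon arrays gave 22.8, 28.1, 26.7 and 24.5, and the Nrl ko 2 mon arrays 45.99, 74.2, 39.1 and 53.7. The knockout was higher than wild type in every array at both ages and fell by 2.30 ± 0.20 with age, with an effect of 3.67 ± 0.20 at P10 and 1.02 ± 0.20 at 2 months (interaction -2.64 ± 0.28, adjusted p = 2.31e-07), whereas a second, dim probe set gave -0.22 ± 0.15. Tnfsf9, the ligand of the 4-1BB receptor, read 58.7, 65.9, 67.5 and 71.2 in WT P10 and 213, 148, 189 and 176 in Nrl ko P10. By 2 months they were 64.1, 65.4, 63.3 and 61.6 in WT 2 mon and 63.7, 65.6, 66.9 and 65.00 in Nrl ko 2 mon. Only Nrl ko P10 stood apart, and the other 3 groups overlapped (interaction -1.42 ± 0.12, adjusted p = 6.04e-09). Epha8, an ephrin receptor, averaged 83.5 ± 7.96 and 222 ± 6.88 at P10 and 83.4 ± 1.84 and 103 ± 11.3 at 2 months (interaction -1.12 ± 0.12, adjusted p = 6.27e-07).

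Mycn, a transcription factor of proliferating progenitors, averaged 106 ± 22.5 and 184 ± 9.54 at P10 and fell with age in both genotypes, to 36.8 ± 3.59 and 36.7 ± 4.05, and the knockout effect at 2 months was -0.01 ± 0.11 (interaction -0.83 ± 0.16, adjusted p = 0.00198; a second probe set 0.13 ± 0.14). Krt18, a keratin of simple epithelia, rose in wild type from 65.2 ± 4.38 to 131 ± 13.1, a level near that of the knockout at P10, 111 ± 7.71, and at 2 months, 122 ± 5.19 (interaction -0.87 ± 0.12, adjusted p = 2.35e-05; a second probe set -0.04 ± 0.13). Apoc1, an apolipoprotein, averaged 77.9 ± 9.09 in Nrl ko P10 with 35.8 to 40.6 in the other 3 groups (interaction -0.79 ± 0.13, adjusted p = 0.000226). Srebf1, a transcription factor of lipid synthesis, was 377 ± 33.2 and 535 ± 24.1 at P10 and 463 ± 30.2 and 446 ± 16.6 at 2 months (interaction -0.56 ± 0.11, adjusted p = 0.00149). The excesses of Spint1, a Kunitz-type protease inhibitor, Htra1, a secreted serine protease, and Ifitm10, an interferon-induced transmembrane family member, shrank, with interactions of -0.73 ± 0.12, -0.73 ± 0.12 and -0.64 ± 0.11 (adjusted p = 0.000356, 0.000453 and 0.000273).

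Faded and shrunk deficits outside the visual cascade came about in both ways. Ppp2r2b, a regulatory subunit of protein phosphatase 2A, read 1903, 1595, 1461 and 1852 in WT P10 and 576, 465, 594 and 487 in Nrl ko P10. At 2 months the values were 1649.7, 1520.3, 1379 and 1729 in WT 2 mon and 1283, 1080.4, 1373 and 1332 in Nrl ko 2 mon. Knockout values lay below wild type at both ages, by a wide margin at P10 and a narrow one at 2 months, as the knockout rose by 1.26 ± 0.10 (interaction 1.37 ± 0.14, adjusted p = 2.24e-07). Gldc, glycine decarboxylase, read 213, 202, 199 and 275 in WT P10 and 99.97, 105, 102 and 94.8 in Nrl ko P10. In WT 2 mon it read 77.3, 91.1, 89.7 and 109.5, and in Nrl ko 2 mon 112, 103, 93.7 and 118. Here wild type fell by 1.27 ± 0.10 to the level of the knockout, whose change was 0.08 ± 0.10 (adjusted p = 0.728), and the interaction was 1.36 ± 0.14 (adjusted p = 3.33e-07). AW549877, an expressed sequence, likewise fell in wild type, from 367 ± 29.02 to 198 ± 19.9 (interaction 0.70 ± 0.13, adjusted p = 0.00085). Ankrd33b, an ankyrin repeat protein, and Ssu72, an RNA polymerase II phosphatase, had shrunk deficits with interactions of 1.14 ± 0.30 and 0.58 ± 0.15 (adjusted p = 0.0323 and 0.0355), which were not called in 9 and 11 of the 16 fits that each left out 1 array. Pcp2, a bipolar cell protein, was the 1 call among 7 bipolar genes, where 2.80% of all genes were called. Its excess of 0.35 ± 0.08 at P10 faded (interaction -0.44 ± 0.11, adjusted p = 0.0344), not called in 11 of those 16 fits. A second, dimmer Pcp2 probe set gave -0.33 ± 0.28 (not called).

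The effect had turned around in 7 genes, of which 6 met the naming rule. Counted by probe sets there were 9, and 4 without replicate 3 or 5 without replicate 2 of WT P10. Myo7a, an unconventional myosin of pigment epithelium and photoreceptors, read 328, 324, 361 and 326 in WT P10 and 189.5, 196, 159 and 207 in Nrl ko P10. Readings at 2 months were 196, 209.7, 227 and 221 in WT 2 mon and 236, 259, 287 and 285 in Nrl ko 2 mon. The knockout was below wild type in every array at P10 and above it in every array at 2 months, as wild type fell by 0.65 ± 0.08 and the knockout rose by 0.51 ± 0.08 (interaction 1.16 ± 0.11, adjusted p = 8.38e-08). Otud7b, a deubiquitinase, and Sirt2, a deacetylase, did likewise, with effects of -0.63 ± 0.08 and -0.41 ± 0.08 at P10 and 0.41 ± 0.08 and 0.49 ± 0.08 at 2 months. Ttr, transthyretin, a carrier of thyroid hormone and retinol-binding protein, had an effect of -0.40 ± 0.09 at P10 and 0.31 ± 0.09 at 2 months. In the other direction, Egln1, a prolyl hydroxylase of oxygen sensing, had 0.36 ± 0.09 at P10 and -0.49 ± 0.09 at 2 months, and the immediate early gene Ier2 had 0.45 ± 0.12 and -0.46 ± 0.12. Ier2 read 74.7, 67.1, 68.9 and 89.7 in WT P10 and 98.8, 107, 96.5 and 104 in Nrl ko P10. The WT 2 mon arrays gave 122, 139.7, 137 and 155, and the Nrl ko 2 mon arrays 86.00, 84.7, 97.4 and 144. At P10 the knockout was above wild type throughout, and at 2 months replicate 4 of the knockout overlapped wild type, as it did for Fos. The interaction of Ier2 was -0.90 ± 0.17 (adjusted p = 0.00124), and -1.08 without that array.

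**Figure D4:**
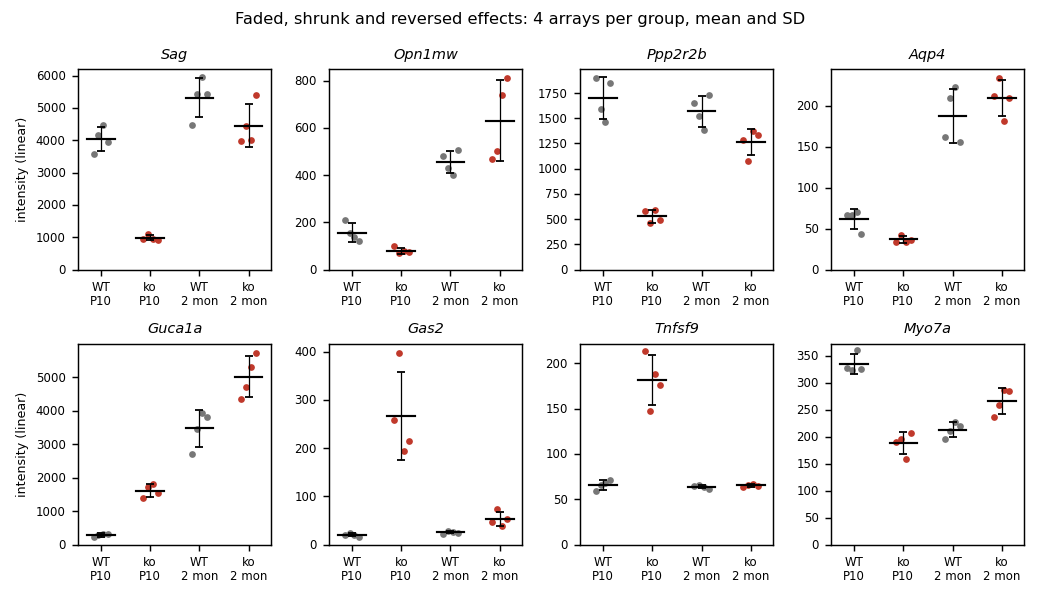
Intensity (linear scale) of 8 genes whose effect faded, shrank or reversed, with 1 point per array (4 per group), a bar for the mean and whiskers for the SD; grey is wild type and red is knockout. Sag, Opn1mw, Ppp2r2b and Aqp4 are lower in the knockout at P10 and close to wild type at 2 months, Guca1a, Gas2 and Tnfsf9 are higher at P10, and in Myo7a the order of the genotypes turns around.

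Pigment epithelium genes had 2 calls of 11, Ttr and Pmel, both more positive, as were 1.47% of all genes. Pmel, a melanosome matrix protein, averaged 128 ± 12.9 and 96.2 ± 9.99 at P10 and 84.4 ± 3.67 and 97.1 ± 4.98 at 2 months (interaction 0.62 ± 0.12, adjusted p = 0.00145). The summed level of the list was 2517.5 to 2864 in WT P10, 1729 to 1895 in Nrl ko P10, 2956 to 3369 in WT 2 mon and 2274 to 2480.2 in Nrl ko 2 mon. The sum did not overlap between genotypes at either age, but it does not describe all members. Their median log2 knockout effect was -0.18 at P10 and 0.07 at 2 months. At P10 0 members were called higher and 4 lower, and at 2 months 1 higher and 1 lower. Cst3, a member of the list, was at -0.77 and -0.68. The part of attached pigment epithelium in these results was not tested. Over all genes 2.80% were called in either direction. Of 26 oxidative stress genes the 2 called were Mt1 and Mt2. Of 20 genes of cholesterol and fatty acids they were Fabp7 (more positive) and Srebf1 (more negative). Of 14 small nucleolar RNA hosts and ribosomal protein genes they were Gas5 and Tpt1, both more negative. With 1 array left out at a time, these counts ranged from 0 to 3, stayed at 2, and ranged from 1 to 3. Tpt1, a translationally controlled protein, had an interaction of -0.37 ± 0.10 (adjusted p = 0.0373) with no call at either age, and was not called in 10 of the 16 fits that each left out 1 array.

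No member was called in limma among 17 amacrine and horizontal cell genes, 12 ganglion cell genes, 6 blood genes, 17 vascular genes, 25 cell cycle genes, 25 creatine and TCA cycle genes, 20 synaptic genes, 34 extracellular matrix genes, 23 BMP signalling genes, 9 myelin genes and 4 sex-linked genes. At unadjusted p under 0.05 these lists together counted 11 of 192 members (5.73%), against 742 of 8251 genes (8.99%). The 742 include the 231 called genes, whereas these lists were picked for holding none, so the 2 shares are not comparable. The median interaction lay between -0.09 and 0.07 in each of these 11 lists, against -0.03 over all genes.

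**Figure D5:**
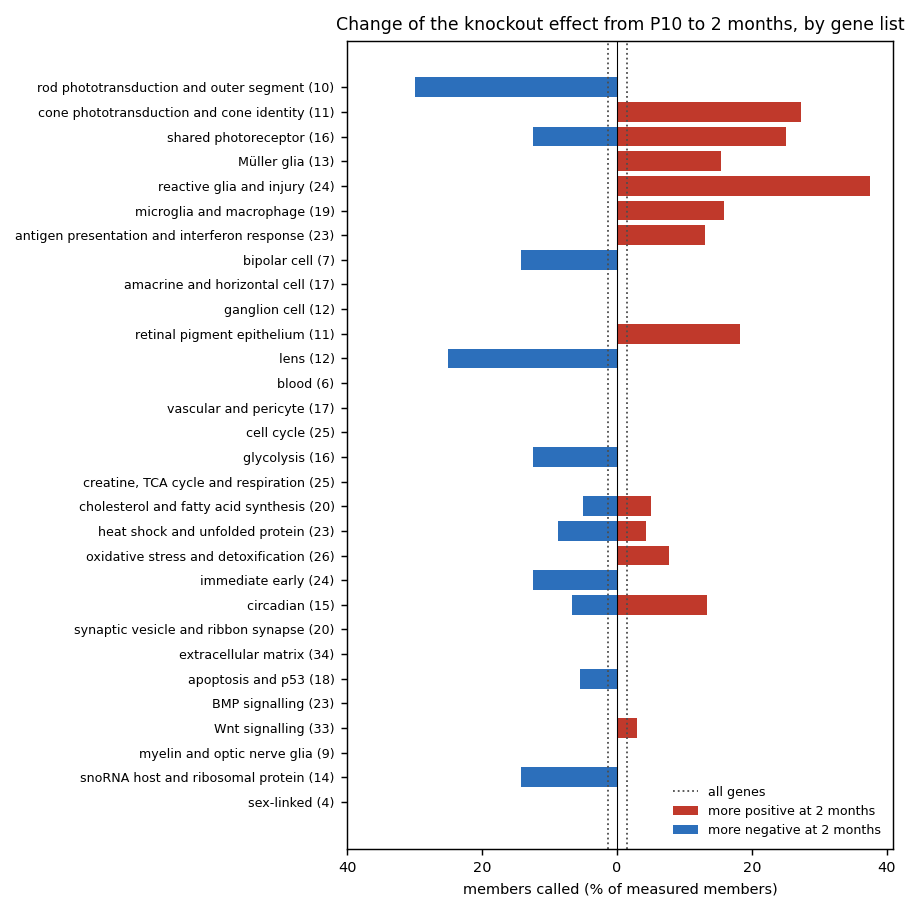
Share of each gene list's measured members (their number in brackets) whose knockout effect was called more positive (red, to the right) or more negative (blue, to the left) at 2 months than at P10 (limma, n = 4 arrays per group), with dotted lines at the shares over all genes, 1.47% and 1.33%. Reactive glia (9 of 24) reaches farthest to the right and rod genes (3 of 10) farthest to the left. The lists were chosen with earlier results of these data known.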

How the data were processed

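Total RNA of 24 whole-retina samples had been hybridised to Affymetrix arrays. The deposited intensity values, 1 per probe set and array on a linear scale, are the authors' output of RMA, which summarises the probes of a probe set, according to the submitters' processing notes; its version and the set of arrays it was run on are not given in the sources used here. The 66 array controls among the 12488 probe sets were not analysed.

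Log2 intensities were fitted with limma 3.58.1 (R 4.3.3; lmFit, eBayes) as 6 group means over the 24 arrays. Each contrast, with 4 arrays per group, was tested two-sided and adjusted by Benjamini-Hochberg over 12422 probe sets, and called at adjusted p under 0.05. Errors of log2 values are standard errors, and errors of intensities are SD over n = 4.

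Named genes were interaction calls with a group mean of at least 64: the 5 largest per direction in each class, and up to 4 called members of each of 30 gene lists. The genes and lists were chosen with earlier results of these data known. Gene symbols came from the platform annotation, and promoter windows (250 bases), coordinates and chromosome 14 neighbours of Nrl (within 20 Mb) from RefSeq tables of GRCm38.p6.

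On simulated data of the interaction over 12422 probe sets, 48% of 50 probe sets changed by 0.5 log2 units were recovered. The shares were 96% at 1, 100% at 1.5 and 100% at 2, with 9 false calls. The simulated noise was normal and independent between arrays, and only Nrl ko 2 mon was changed. Deviations of the real arrays were correlated, so these rates may not hold for them. Alternatives were quantile normalisation, median centring, a filter on dim probe sets (mean log2 under 6), trended or robust moderation, array weights, a pseudocount of 16, a fit to the 16 arrays, a replicate block, adjusted p under 0.01 and leaving out each array in turn. Python 3.11.15 and matplotlib 3.10.9 made the figures.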

Additional observations from a re-analysis of the deposited data

Results flagged for a closer look

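The knockout effect differed between P10 and 2 months in limma for 76 of the 77 genes named by rule, Nrl being the exception, and the log2 interactions are listed here by class. Among late-onset genes higher in the knockout they were Pygm 1.82, En2 1.496, Txndc5 1.22, Serpina3n 1.21, Ccl9 1.15, Hsph1 1.14, Clu 1.02, S100a6 0.97, Cebpd 0.94, Ctss 0.71, B2m 0.66, Gfap 0.63, Dbp 0.63, H2-K1 0.59, C1qc 0.56, Mt1 0.55, Frzb 0.55, C1qa 0.46, Mt2 0.46 and Tef 0.40. Among late-onset genes lower in the knockout they were Crygb -3.14, Crygc -2.66, Mef2c -2.03, Crygs -1.82, Ccn4 -1.59, Fos -1.495, Hspa1b -1.41, Hspa1a -1.13, Dusp1 -0.93, Pfkp -0.70, Bcl2l11 -0.67, Esrrb -0.67 and Nfil3 -0.48. Among grown genes higher in the knockout they were Clca1 2.22, Fkbp9 1.65, Fabp7 1.202, Map6 0.97 and Gnb3 0.96. Among grown genes lower in the knockout they were Aqp1 -2.58, Gas5 -1.60, Fam3c -1.21, Polg2 -1.08, Tnfaip3 -0.98, Cnga1 -0.94 and Reep6 -0.64. Among genes higher at P10 whose effect faded they were Guca1a -1.97, Tnfsf9 -1.42, Krt18 -0.87, Mycn -0.83, Apoc1 -0.79, Hk2 -0.65, Srebf1 -0.56 and Pcp2 -0.44. Among genes lower at P10 whose effect faded they were Sag 1.77, Opn1mw 1.39, Ppp2r2b 1.37, Gldc 1.36, Aqp4 0.90 and Pmel 0.62. Where a higher level shrank they were Gas2 -2.64, Epha8 -1.12, Spint1 -0.73, Htra1 -0.73 and Ifitm10 -0.64. Where a lower level shrank they were Ankrd33b 1.14, Pdc 1.05, Rom1 0.71, AW549877 0.70 and Ssu72 0.58. In genes that ended higher after a reversal they were Myo7a 1.16, Otud7b 1.04, Sirt2 0.90 and Ttr 0.71. In genes that ended lower after a reversal they were Ier2 -0.90 and Egln1 -0.85. The gene called at neither age was Tpt1 -0.37.

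One array stood apart from the other 3 of its group in 15 of 308 gene and group combinations, 4.87%, where chance alone gives about 1 in 20. The intensities were those of Fkbp9 in WT P10 replicate 1 (36.09), Gas5 in Nrl ko P10 replicate 2 (389.53), Polg2 in WT 2 mon replicate 4 (170.01), Tnfaip3 in WT P10 replicate 1 (101.29), Aqp4 in WT P10 replicate 4 (43.52), Spint1 in WT P10 replicate 1 (26.71), Spint1 in Nrl ko P10 replicate 2 (85.12). The others were Htra1 in WT P10 replicate 4 (456.84), Ifitm10 in WT 2 mon replicate 4 (172.2), Myo7a in WT P10 replicate 3 (361.28), Ttr in WT P10 replicate 4 (59.39), Gfap in WT 2 mon replicate 3 (55.24), C1qa in Nrl ko 2 mon replicate 1 (101.34), Tpt1 in Nrl ko 2 mon replicate 3 (2061.78) and Nrl in WT 2 mon replicate 4 (189.16). WT P10 held 7 of the 15, 3 of them in replicate 1 and 3 in replicate 4.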

How the results depend on the processing

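Of the 76 named calls, 63 were kept in all 16 fits that each left out 1 array and 13 were lost in some (Crygb, Crygc, Ankrd33b, Ssu72, Esrrb, Cebpd, Pcp2, Hk2, Mt1, Mt2, Nfil3, Tef and Tpt1). Leaving out 1 array gave 117 to 168 more positive and 118 to 168 more negative probe sets, against 151 and 144, with 123 to 158 late-onset, 45 to 56 grown, 42 to 65 faded, 9 to 13 shrunk and 4 to 12 reversed, the lowest without WT P10 replicate 3 (4) and replicate 2 (5). The interaction of Nrl, which was not called, lay between -0.025 and 0.18 in those fits. The number of reversed probe sets, 9, was 17 with quantile normalisation and 14 with the filter on dim probe sets. With array weights there were 475 calls, of them 252 more negative, 83 grown, 117 faded, 21 shrunk and 27 reversed, and 294 of the 295 calls were shared. At adjusted p under 0.01 there were 191 calls, with 94 more positive, 30 faded, 8 shrunk and 3 reversed. The other settings, apart from the replicate block, gave 237 to 388 calls. Median centring, which moved the median interaction from -0.03 to 0.00, gave 271 calls, of which 259 were shared. The cause of these differences was not tested.

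What a replicate number marks is not given in the sources used here. Deviations from the group means correlated above 0.1 in 17 of 24 same-numbered pairs (-0.16 to 0.54) and in 19 of 72 others. They did so in all 4 same-numbered pairs of WT P10 with each 2-month group, and in 3 of 4 between the genotypes at 2 months. The count was 3 of 4 for Nrl ko P10 with Nrl ko 2 mon and 2 of 4 for Nrl ko P10 with WT 2 mon. Between the genotypes at P10 it was 1 of 4. Pairing was not assumed, because the meaning of the number is unknown. With the number as a replicate block over all ages there were 414 calls (86 faded, 22 shrunk, 20 reversed) and within age 298, which shared 294 and 263 with the 295 calls. Among the named genes, Crygb was not called with the first block (adjusted p = 0.0512), nor Ankrd33b, C1qa, Pcp2, Mt2 and Tpt1 with the second (adjusted p = 0.0503 to 0.109).

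Of 22 named genes with further probe sets, 5 had another that was called. Signals near background, as for Cnga1 in the knockout, limit the size of effects, and small effects were recovered less often in simulation than large ones.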

Other observations

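Further called genes, all chosen after their values were seen, fell outside the lists or below the naming rule. Late-onset excesses included Pdpn, podoplanin, a membrane mucin, with 51.6 ± 6.76 in WT 2 mon and 114 ± 17.6 in Nrl ko 2 mon (SD, n = 4; interaction 0.84 ± 0.14, limma adjusted p = 0.000294), Cebpb, an inflammatory transcription factor, at 0.61 ± 0.15 (adjusted p = 0.0186), and Serping1, the inhibitor of complement C1, at 0.46 ± 0.11 (adjusted p = 0.0128). Prdm1, a repressor that acts in early photoreceptors, fell by 1.46 ± 0.11 with age in wild type and fell by 0.52 ± 0.11 in the knockout, so that its excess grew from 0.52 ± 0.11 to 1.46 ± 0.11.

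Late-onset deficits included Hdc, histidine decarboxylase, which makes histamine, with 54.3 ± 4.09 in WT 2 mon and means of 23.2 to 24.9 in the other groups (interaction -1.14 ± 0.14, adjusted p = 5.64e-06), and Ddit4, a stress-induced inhibitor of mTORC1, with 445 ± 62.1 and 203 ± 29.8 at 2 months (interaction -0.90 ± 0.17, adjusted p = 0.00124). Cd24a, a surface protein of immature neurons, fell in both genotypes to 93.8 ± 7.27 and 82.1 ± 2.77, and its excess of 0.56 ± 0.10 at P10 faded (interaction -0.75 ± 0.14, adjusted p = 0.00094). Neurod1, a proneural factor of photoreceptors and amacrine cells, had a deficit of -0.40 ± 0.10 at P10 that faded to an effect of 0.29 ± 0.10 at 2 months (adjusted p = 0.0769).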
